A study of Mus musculus with 4 samples.

Results

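Gfi1, its closest relative Gfi1b and 6 genes for the corepressor proteins that work with them (Kdm1a, Rcor1, Hdac1, Hdac2, Hdac3 and Ehmt2) were followed across 4 mouse bone marrow populations, each measured on 1 Affymetrix array. The 8 genes were chosen by name, and every probe set that the platform annotation gives to one of them was read, 12 in all, among 12393 named genes on the arrays. Gfi1, Gfi1b, Hdac1, Hdac2 and Hdac3 had 1 probe set each, Kdm1a and Ehmt2 had 2, and Rcor1 had 3. All 4 populations came from untreated mice of 8 weeks on a C57BL/6 background, backcrossed for at least 10 generations, and all carried at least 1 GFP:Gfi1 knock-in allele, in which the coding sequence of green fluorescent protein stands in the Gfi1 locus. Granulocytes were CD11b+, Gr1-high cells of GFP:Gfi1 KI/WT mice. Gfi1-deficient cells were CD11b+, Gr1-low cells of GFP:Gfi1 KI/KI genotype, which the label names a knock-out and for which it gives no GFP gate. GFP-high and GFP-low cells were the CD11b+, Gr1-low cells of KI/WT mice sorted by the reporter. The labels call all 3 Gr1-low populations monocytes, and no population without the knock-in allele was analysed here. The labels do not say whether animals were pooled.

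Gfi1 and Gfi1b are zinc finger repressors of blood cell development. A short SNAG domain at the start of the protein resembles the tail of histone H3 and holds the demethylase LSD1, the product of Kdm1a. CoREST, the product of Rcor1, ties LSD1 to the histone deacetylases HDAC1 and HDAC2. HDAC3, better known from the NCoR-SMRT complex, and the H3K9 methyltransferase G9a, the product of Ehmt2, are also known as partners of Gfi1. In bone marrow Gfi1 is known for its part in granulocyte formation and in the restraint of monocytic genes, and Gfi1b for its part in red cell and platelet formation.

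Gfi1 is known to repress its own gene and that of Gfi1b, and the zinc fingers of both proteins read sites with the core AATC. The promoter windows of these 2 genes are shown for that reason, from 250 bases before to 50 after an annotated start (RefSeq, GRCm38.p6), each on the strand of its gene, with each AATC or its reverse complement GATT in capitals. The table used holds 8 windows for 6 of the 8 genes.
Gfi1, chr5:107725756-107726055, minus strand: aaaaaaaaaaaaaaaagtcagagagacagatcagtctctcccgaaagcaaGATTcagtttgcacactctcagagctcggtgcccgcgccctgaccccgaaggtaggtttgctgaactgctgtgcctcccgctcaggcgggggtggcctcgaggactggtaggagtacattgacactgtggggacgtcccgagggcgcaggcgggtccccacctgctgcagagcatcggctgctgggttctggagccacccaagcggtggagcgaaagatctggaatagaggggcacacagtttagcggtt
Gfi1, chr5:107724294-107724593, minus strand: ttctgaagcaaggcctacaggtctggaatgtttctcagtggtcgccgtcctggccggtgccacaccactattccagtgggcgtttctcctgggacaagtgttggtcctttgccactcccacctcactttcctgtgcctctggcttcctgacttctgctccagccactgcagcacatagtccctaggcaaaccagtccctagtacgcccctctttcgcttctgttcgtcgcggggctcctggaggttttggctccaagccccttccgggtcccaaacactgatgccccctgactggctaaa
Gfi1b, chr2:28621933-28622232, minus strand: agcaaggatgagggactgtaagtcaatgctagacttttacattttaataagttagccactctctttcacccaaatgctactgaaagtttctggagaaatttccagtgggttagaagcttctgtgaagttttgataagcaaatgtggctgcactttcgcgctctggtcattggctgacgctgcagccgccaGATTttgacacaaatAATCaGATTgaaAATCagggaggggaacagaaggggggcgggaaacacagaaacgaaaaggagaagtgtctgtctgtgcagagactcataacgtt
The core occurred 4 times in the Gfi1b window, 1 time in the first Gfi1 window and 0 times in the other. Of 32851 mouse windows of 300 bases, 73.1% held it at least 1 time and 10.1% at least 4 times, so a match of 4 letters is common, and it is given as a description of these windows. It occurred 1 time in the Kdm1a window and 0 times in those of Rcor1, Hdac2 and Ehmt2. The windows of the cofactor genes were rich in CpG pairs, with 29 in Kdm1a, 31 in Rcor1, 36 in Hdac2 and 28 and 40 in the windows of Ehmt2. Those of Gfi1 held 16 and 10 and that of Gfi1b 7, against a median of 7 over all windows.

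Values are on the log2 scale as deposited. A value under 5.18, the 40th percentile of all values, was set to that floor, and where 1 of the arrays compared lay there the difference is a bound ("at least"). With 1 array in each population there is no spread between animals and no test. Genes were counted where they were at least 2-fold apart. The only error that can be read within the arrays is the SD between different probe sets of a gene in the same comparison. It holds no error of animal, sort, RNA preparation or array, so it is a lower limit. This SD came to 0.16 between Gfi1-deficient and GFP-low cells, to 0.27 for GFP-high minus GFP-low and for Gfi1-deficient minus GFP-high cells, and to 0.32, 0.35 and 0.39 for the 3 comparisons with granulocytes.

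The sort was read from marker lists. GFP-high cells had all 8 monocyte markers 2-fold or more under GFP-low cells, beside 9.61% of all genes. Csf1r, for one, read 8.86 in GFP-high cells and 12.90 in GFP-low cells. All 7 measured markers of granulocyte-monocyte progenitors were 2-fold or more above GFP-low cells, beside 9.03% of all genes. Among them Mpo read 13.66 in GFP-high cells and 8.08 in GFP-low cells. The label monocyte is therefore not used for GFP-high cells below. The summed level of 7 granulocyte markers was log2 16.54 in granulocytes, 12.72 in Gfi1-deficient, 16.14 in GFP-high and 14.63 in GFP-low cells. Among T cell markers Cd3d was 8.48 in granulocytes, against 4.98 to 6.23 in the Gr1-low populations, while Cd3e (6.81 in granulocytes, 6.18 to 6.56 in the others) and Cd4 (6.57, against 6.00 to 6.52) were close and Cd3g was under the floor everywhere. Of 4 measured B cell markers 2 were 2-fold or more above GFP-low cells in granulocytes, beside 10.0% of all genes. These were Cd79a at 7.47, against 5.36 to 6.31, and Vpreb1 at 6.22, against values under the floor. The Gfi1-deficient array differed from the others in sex-linked transcripts, with Xist at 5.80 there and 9.56 to 10.93 elsewhere. The Y-linked genes Eif2s3y and Kdm5d read 8.31 and 6.08 there and were under the floor elsewhere. By these genes that array reads as male and the others as female. For Actb the gap between 3' and 5' probe sets, a sign of RNA quality, ran from 0.08 in granulocytes to 0.28 in Gfi1-deficient cells. For Gapdh it was -0.10 in Gfi1-deficient cells and -0.06 in each other population. The Gfi1-deficient array was thus highest for Actb and lowest for Gapdh.

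Gfi1 itself read 7.31 in granulocytes, 5.18 in Gfi1-deficient cells, 10.31 in GFP-high cells and 3.74 in GFP-low cells. The transcript was high in GFP-high cells, intermediate in granulocytes and under the floor, in Gfi1-deficient cells by less than the rounding, in the other 2 populations, where no order can be given. The level in GFP-high cells was at least 35.1-fold that in Gfi1-deficient cells and in GFP-low cells. Granulocytes read at least 4.39-fold above Gfi1-deficient and GFP-low cells and 8.00-fold below GFP-high cells. It is not known here whether the probes fall within the stretch replaced by GFP, so the reading of 5.18 in Gfi1-deficient cells does not check that label. GFP-high over GFP-low cells is the order set by the reporter gate.

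Transcripts of granulocyte-monocyte progenitors, apart from Cd34, were, like Gfi1, highest in GFP-high cells. Their summed level over 8 markers was log2 11.20 in granulocytes, 13.56 in Gfi1-deficient cells, 15.53 in GFP-high cells and 11.13 in GFP-low cells, with 7, 7, 7 and 6 of 8 above the floor. In GFP-high minus GFP-low cells 7 of 7 measured were at least 2-fold higher, beside 9.03% of all genes, with a median of 4.32. Cd34 was not measured in that comparison, since it was under the floor on both arrays. It read 5.31 in Gfi1-deficient cells and was under the floor in granulocytes as well. Granulocytes and Gfi1-deficient cells did not follow the order of Gfi1 in most of the list. There 5 of 8 were at least 2-fold lower in granulocytes than in Gfi1-deficient cells and 2 were higher, with a median of -1.68. Of all genes 20.3% were lower and 11.2% higher. The 5 were the granule genes Mpo (-2.06), Elane (-3.03), Prtn3 (-3.72) and Ctsg (-3.02), and Ms4a3 (-1.30). The 2 that were higher were Kit, the stem cell factor receptor, by at least 1.33, and Myb, a transcription factor of progenitors, by 1.33. In Gfi1-deficient minus GFP-low cells 5 of 7 were at least 2-fold higher, beside 0.637% of all genes, with a median of 2.44.

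Eosinophil markers were also highest in GFP-high cells, with a summed level of log2 7.94 in granulocytes, 10.91 in Gfi1-deficient, 12.65 in GFP-high and 8.10 in GFP-low cells. Of 4 on the arrays 3 were measured, and all 3 stood 2-fold or more above GFP-low cells in both GFP-high and Gfi1-deficient cells. Of all genes 9.03% and 0.637% did so. The medians of the markers were 4.63 in GFP-high and at least 2.93 in Gfi1-deficient cells, each minus GFP-low cells. Prg2, a granule protein gene of eosinophils, read 7.29 in granulocytes, 10.54 in Gfi1-deficient, 12.16 in GFP-high and 7.53 in GFP-low cells, and the receptor gene Il5ra was under the floor on all arrays. In such sorted bulk samples fewer cells of a type and less RNA per cell cannot be told apart, and the part of progenitors or eosinophils in the Gfi1 level was not tested.

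**Figure D1:**
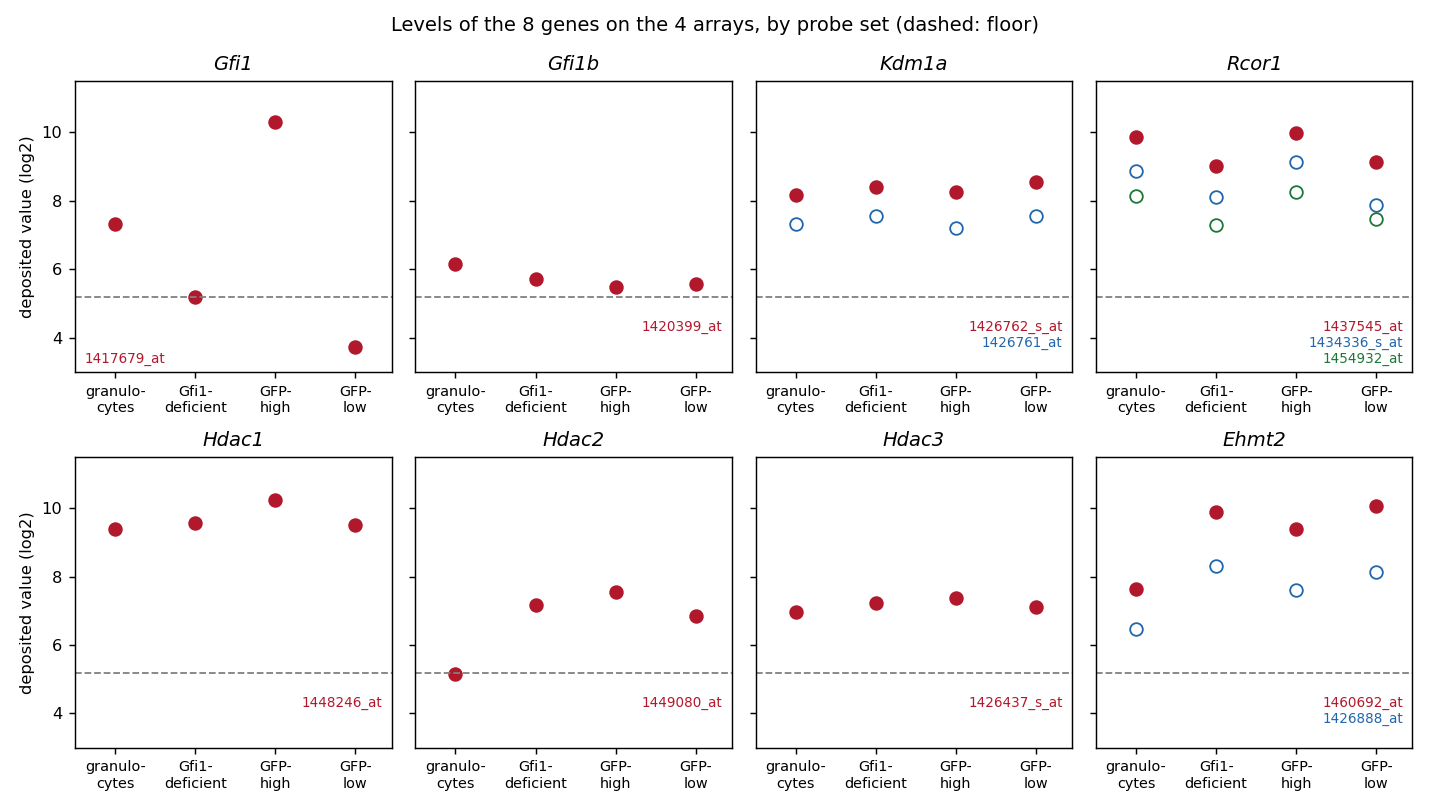
Deposited log2 value (vertical axis) of each probe set of the 8 genes in the 4 populations (horizontal axis), with filled points for the probe set that represents the gene, open points for its other probe sets and a dashed line at the floor of 5.18. Gfi1 spans 3.74 to 10.31, Rcor1 is high in granulocytes and GFP-high cells in all 3 probe sets, and Hdac2 and Ehmt2 are lowest in granulocytes.

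Gfi1b, the relative that serves red cell and platelet precursors, stayed close to the floor. It read 6.15 in granulocytes, 5.73 in Gfi1-deficient cells, 5.48 in GFP-high cells and 5.56 in GFP-low cells. The reading in granulocytes was the highest, and no 2 arrays were 2-fold apart, the widest gap being 0.67 between granulocytes and GFP-high cells. Gfi1-deficient minus GFP-low cells gave 0.17, beside an SD between probe sets of 0.16, so the arrays do not set these apart. Red cell markers were also highest in granulocytes, with a summed level of log2 9.84 there, 8.54 in Gfi1-deficient, 8.94 in GFP-high and 9.23 in GFP-low cells, and 5 of 6 above the floor on each array. Platelet precursor markers summed to 8.79, 8.18, 8.54 and 8.45 in the same order of arrays, with 4 of 6 above the floor on each. The haemoglobin gene Hba-a1 was below the floor on all 4 arrays, and the part of these cells in the Gfi1b reading was not tested.

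Other proteins of the mouse genome carry a SNAG domain, and of the 11 in the list, Gfi1 and Gfi1b included, 10 were named on the arrays. Of these 10, 3 passed the floor in some population, namely Gfi1, Gfi1b and Snai1. Snai1, a repressor best known from epithelial cells, read 6.82 in granulocytes, 4.25 in Gfi1-deficient, 4.87 in GFP-high and 4.27 in GFP-low cells. Granulocytes stood at least 3.12-fold above each Gr1-low population.

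Kdm1a, the LSD1 demethylase that the SNAG domain holds, differed little. Its representing probe set read 8.17 in granulocytes, 8.41 in Gfi1-deficient cells, 8.25 in GFP-high cells and 8.55 in GFP-low cells. Its other probe set read 7.32, 7.54, 7.19 and 7.56 in the same order of arrays. The representing probe set has the suffix _s_at, which marks probes that match more than 1 transcript. Both probe sets read highest in GFP-low cells, though in the second Gfi1-deficient cells were level with them within 0.01. They spanned 0.38 and 0.37 in all, well under 2-fold. The difference between GFP-high and GFP-low cells was -0.30 and -0.37 in these probe sets, and that between Gfi1-deficient and GFP-low cells was -0.14 and -0.01.

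Rcor1, the CoREST scaffold between LSD1 and the deacetylases, divided the arrays into the same 2 pairs as the floor did for Gfi1. Its representing probe set read 9.86 in granulocytes, 9.01 in Gfi1-deficient cells, 9.98 in GFP-high cells and 9.14 in GFP-low cells. The other probe sets read 8.87, 8.10, 9.13 and 7.88, and 8.14, 7.30, 8.26 and 7.46, in the same order of arrays. In all 3, granulocytes and GFP-high cells, where Gfi1 was above the floor, lay above Gfi1-deficient and GFP-low cells, where it was not. GFP-high minus GFP-low cells gave 0.84, 1.25 and 0.79 in the 3 probe sets, beside an SD between probe sets of 0.27. Gfi1-deficient minus GFP-high cells gave -0.97, -1.03 and -0.96. The representing probe set thus stayed just under the 2-fold rule, and 1 of the other probe sets, whose suffix _s_at marks probes that match more than 1 transcript, passed it. Granulocytes minus GFP-low cells gave 0.72, 1.00 and 0.68. Between granulocytes and GFP-high cells the differences were -0.12, -0.26 and -0.11, and the first of these became 0.13 when the arrays were centred on their medians, so no order is given for that pair. Gfi1-deficient minus GFP-low cells gave -0.13, 0.22 and -0.17, with no common sign. Gfi1 itself gave -3.00 in granulocytes minus GFP-high cells, where Rcor1 was close. All 8 monocyte markers split the arrays into the same pairs, the other way round. Their medians were -4.38 in GFP-high and -4.11 in granulocytes, each minus GFP-low cells. Most granulocyte markers ran the same way as Rcor1. Of 7 measured, 6 were at least 2-fold above GFP-low cells in GFP-high cells, and 6 in granulocytes, beside 9.03% and 10.0% of all genes. Gfi1-deficient cells had 6 of the 7 at least 2-fold under GFP-high cells, beside 7.81% of all genes. Mmp8 went the other way there, with 11.71 in Gfi1-deficient and 11.32 in GFP-high cells. The part of cell type in the Rcor1 level was not tested.

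Of the LSD1-CoREST list, 11 genes with Kdm1a and Rcor1 among them, 7 were named on the arrays and 6 were measured. In GFP-high minus GFP-low cells 1 of these 6 was at least 2-fold higher and 0 lower, beside 9.03% and 9.61% of all genes, with a list median of -0.16 against 0.03. The 4 measured besides Kdm1a and Rcor1 went both ways, with Zmym3 at 1.25, Rcor2 at -0.09, Hmg20b at -0.22 and Phf21a at -0.92. Phf21a, which encodes a subunit that reads unmethylated H3K4, read 9.70 in granulocytes, 8.35 in Gfi1-deficient, 7.70 in GFP-high and 8.62 in GFP-low cells. Granulocytes stood 3.98-fold above GFP-high cells, or 1.99 on the log2 scale, and the other probe set gave 1.85. Zmym3, a zinc finger protein of the complex, read 6.36, 6.23, 7.55 and 6.30 in the same order of arrays, so it was high in GFP-high cells and alike in the other populations. A weaker probe set of Zmym3 was below the floor on all 4 arrays. The paralog Rcor2 read 5.89 to 6.31, and Rcor3 was below the floor on all 4 arrays.

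Hdac1, a catalytic subunit shared by the CoREST, NuRD and Sin3 complexes, read 9.38 in granulocytes, 9.57 in Gfi1-deficient cells, 10.23 in GFP-high cells and 9.51 in GFP-low cells. It stood highest in GFP-high cells, by 0.72 over GFP-low cells, and Gfi1-deficient cells lay 0.66 below GFP-high cells. Granulocytes minus GFP-low cells gave -0.13, within the SD of 0.35 between probe sets and with the opposite sign, 0.09, after median centring.

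Hdac2, the close paralog of Hdac1 in the same complexes, read 5.14 in granulocytes, 7.16 in Gfi1-deficient cells, 7.56 in GFP-high cells and 6.84 in GFP-low cells. It was below the floor in granulocytes and above it in every Gr1-low population. Granulocytes were at least 3.94-fold below Gfi1-deficient, at least 5.21-fold below GFP-high and at least 3.16-fold below GFP-low cells. Among Gr1-low populations GFP-high minus GFP-low cells gave 0.72 and Gfi1-deficient minus GFP-low cells 0.32. That 0.32 was the widest gap among the 7 genes measured between Gfi1-deficient and GFP-low cells. With the floor raised to the 60th percentile, log2 6.81, the granulocyte bounds became -0.35 against Gfi1-deficient, -0.75 against GFP-high and -0.03 against GFP-low cells on the log2 scale.

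Hdac3, the catalytic subunit of the NCoR-SMRT complex, was read by 1 probe set with the suffix _s_at. It read 6.95 in granulocytes, 7.24 in Gfi1-deficient cells, 7.39 in GFP-high cells and 7.11 in GFP-low cells. The order of the arrays was that of Hdac2, but the whole span was 0.44. Granulocytes minus GFP-low cells gave -0.16, and 0.07 after either median centring or quantile normalization.

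Cell cycle genes ran in the same order as Hdac2 and Hdac3. Their summed level over 15 genes was log2 12.04 in granulocytes, 14.02 in Gfi1-deficient, 14.86 in GFP-high and 13.76 in GFP-low cells. Of 14 measured, 13 were at least 2-fold lower in granulocytes than in GFP-low cells, beside 18.2% of all genes. Their median was -1.75. In GFP-high against GFP-low cells 10 of 15 were at least 2-fold higher, beside 9.03% of all genes, with a median of 1.06. Between Gfi1-deficient and GFP-low cells the median was 0.43 with 0 of 14 at least 2-fold apart. Beside 1.91% of all genes, that count of 0 says little. The part of dividing cells in the levels of these deacetylase genes was not tested.

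**Figure D2:**
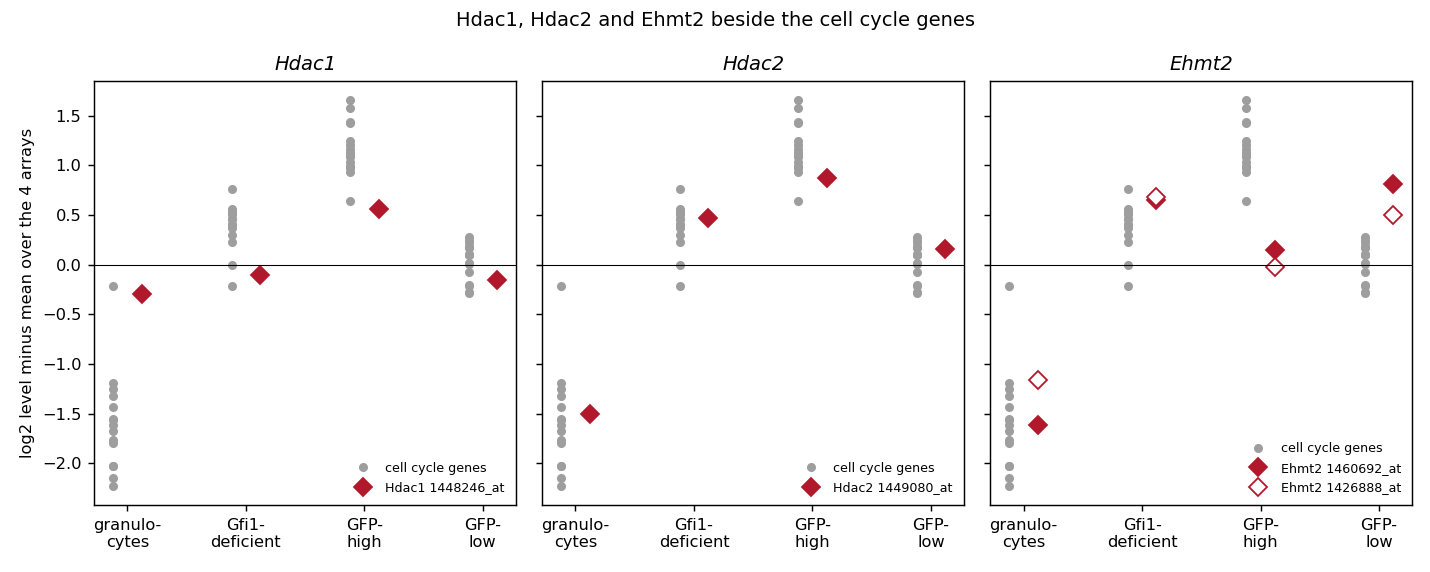
Log2 level of Hdac1, Hdac2 and Ehmt2 (diamonds, with the open one for the second Ehmt2 probe set) and of 15 cell cycle genes (grey points), each minus its own mean over the 4 arrays after the floor, by population. Hdac2 lies among the cell cycle genes or near them on each array, Hdac1 hardly drops in granulocytes, and Ehmt2 is higher in GFP-low than in GFP-high cells, the other way round from the cell cycle genes.

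Deacetylases outside class I were less often measured, with 5 of 7 named and 4 above the floor. Hdac5, a class II enzyme that shuttles between nucleus and cytoplasm, read 8.19 in granulocytes, 8.66 in Gfi1-deficient, 7.11 in GFP-high and 8.80 in GFP-low cells. It was 3.22-fold lower in GFP-high than in GFP-low cells, the opposite way from Hdac1 and Hdac2. Hdac6, a mainly cytoplasmic deacetylase of tubulin, read 6.38, 7.18, 7.44 and 6.60 in the same order of arrays, and Hdac7 stayed between 7.06 and 7.47.

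Ehmt2, which encodes the H3K9 methyltransferase G9a, was low in granulocytes. Its representing probe set read 7.63 in granulocytes, 9.89 in Gfi1-deficient cells, 9.39 in GFP-high cells and 10.05 in GFP-low cells. Its other probe set read 6.46, 8.30, 7.60 and 8.12 in the same order of arrays. Granulocytes stood below all 3 Gr1-low populations and GFP-high cells below the other 2, in both probe sets. Granulocytes were 5.35-fold below GFP-low cells, 4.79-fold below Gfi1-deficient cells and 3.40-fold below GFP-high cells, and 3.17-fold, 3.59-fold and 2.20-fold in the other probe set. GFP-high minus GFP-low cells gave -0.66 and -0.53, and Gfi1-deficient minus GFP-high cells 0.50 and 0.70. Gfi1-deficient minus GFP-low cells gave -0.16 and 0.18, with no common sign.

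The remaining H3K9 methyltransferase genes did not share the drop in granulocytes beyond 2-fold. Of 4 measured, Ehmt2 alone was at least 2-fold lower in granulocytes than in GFP-low cells, beside 18.2% of all genes. The list median was -0.44 against 0.00 for all genes. Setdb1, the methyltransferase of KAP1-dependent silencing, read 7.33 in granulocytes, 7.78 in Gfi1-deficient, 7.78 in GFP-high and 7.59 in GFP-low cells. Wiz, a zinc finger partner of G9a, read 6.19, 6.57, 6.68 and 6.81 in the same order.

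Counted over all 8 genes, the populations compare as follows. Between GFP-high and GFP-low cells, which share genotype and Gr1 gate, 1 of 8 genes, Gfi1, was at least 2-fold apart, while 18.6% of 8232 measured genes were (9.03% higher and 9.61% lower). This count and the median of 0.50, against 0.03 for all genes, include Gfi1, whose order the reporter gate set. None of the other genes was 2-fold apart. They ran from -0.66 for Ehmt2 to 0.84 for Rcor1, with Hdac1 and Hdac2 at 0.72 each. Gfi1-deficient and GFP-high cells differ in genotype, in sort and in sex-linked transcripts. Between them 1 of 8, again Gfi1, was 2-fold apart, beside 17.3% of 8195 genes (9.53% higher and 7.81% lower). The median of the 8 was -0.27 against -0.02, again with Gfi1 included. With quantile normalization Rcor1 joined Gfi1 at -1.03.

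Gfi1-deficient and GFP-low cells differ in genotype, in sort and in sex-linked transcripts as well. Between them 0 of the 7 genes measured were 2-fold apart, and 1.91% of 8010 genes were (0.637% higher and 1.27% lower). The 7 differences ran from -0.16 for Ehmt2 to 0.32 for Hdac2, with a median of 0.05 against 0.03. Gfi1b and each cofactor transcript thus differed by at most 0.32 between these 2 arrays. That is the widest gap seen and no limit of resolution. With 1 array each, the error of animal, sort and array is unknown for differences of any size.

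In granulocytes against GFP-low cells 3 of 8 genes were at least 2-fold apart, Gfi1 higher and Hdac2 and Ehmt2 lower, beside 28.2% of 8503 genes (10.0% higher and 18.2% lower). Against Gfi1-deficient cells Gfi1 was higher and Hdac2 and Ehmt2 were lower in granulocytes, beside 31.5% of 8520 genes (11.2% higher and 20.3% lower). Against GFP-high cells Gfi1, Hdac2 and Ehmt2 were lower in granulocytes, beside 25.3% of 8457 genes (8.93% higher and 16.4% lower). Counted in either direction, 3 of 8 in each comparison is not far from the share of all genes. Against GFP-high cells all 3 were lower, beside 16.4% of all genes, and with 8 genes such a count says little. Scaling matters for granulocytes: median centring moved the median of all genes to 0.19, 0.20 and 0.24, and the share of higher genes among all 2-fold calls became 49.2%, 50.2% and 51.8%, in place of 35.5%, 35.5% and 35.3%, against GFP-low, Gfi1-deficient and GFP-high cells. Under that scaling Hdac2 gave -1.47, -1.76 and -2.17 and Ehmt2 -2.19, -2.01 and -1.52 in the same order of comparisons, all past 2-fold. The comparisons share arrays and are not independent of each other.

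**Figure D3:**
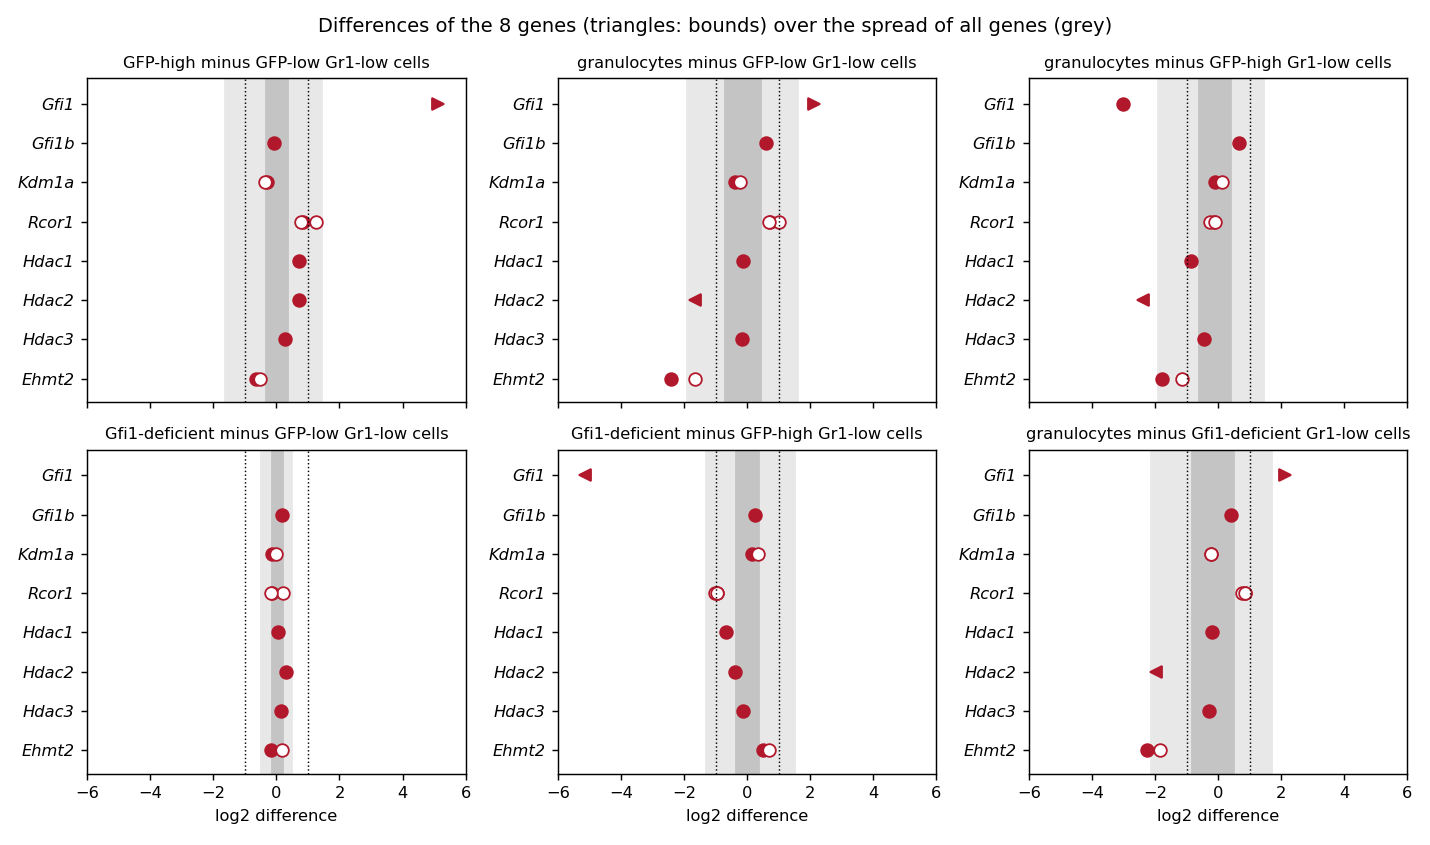
Log2 difference (horizontal axis) of each of the 8 genes in the 6 comparisons, with filled points for the representing probe set, open points for other probe sets, triangles for bounds and dotted lines at 2-fold. Dark and light grey bands hold the central 50% and 90% of all measured genes, and the 7 genes measured in Gfi1-deficient minus GFP-low cells lie between -0.16 and 0.32.

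The wider set of corepressor genes was taken from 7 lists (LSD1-CoREST, class I, class II and IV deacetylases, H3K9 methyltransferases, NuRD, NCoR-SMRT and Sin3), 58 genes of which 43 were named on the arrays and 40 were measured in each comparison. Between Gfi1-deficient and GFP-low cells 0 of 40 were at least 2-fold apart, beside 1.91% of all genes. With so low a share a count of 0 says little about these genes. The widest differences were -0.72 for Arid4b, a Sin3 subunit, and 0.58 for Hdac6. Between GFP-high and GFP-low cells 1 of 40 was higher (Zmym3) and 3 were lower (Cbfa2t3, Hdac5 and Mta3), beside 9.03% higher and 9.61% lower of all genes. Between Gfi1-deficient and GFP-high cells 3 were higher (Cbfa2t3, Hdac5 and Mta3) and 1 lower (Zmym3), beside 9.53% and 7.81% of all genes. Both comparisons share the GFP-high array. In granulocytes 2 of 40 were higher and 7 lower than in GFP-low cells, beside 10.0% and 18.2% of all genes, so the lower share is near that of all genes. The median was -0.11 against 0.00. After median centring 4 of 41 were higher, with Gatad2b and Mbd2 added, and 6 lower, without Sap30, with a median of 0.11 against 0.19.

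Among NuRD genes, whose complex couples deacetylases to a chromatin remodeller, Rbbp7, a histone-binding subunit shared with Sin3, ran like Hdac2. It read 8.39 in granulocytes, 10.22 in Gfi1-deficient, 10.89 in GFP-high and 10.01 in GFP-low cells, and its other probe set was lower in granulocytes than in GFP-high cells by a like amount, -2.44 beside -2.49. Mta3, a NuRD subunit, read 7.72 in granulocytes, 8.88 in Gfi1-deficient, 7.02 in GFP-high and 9.01 in GFP-low cells. It was low where Gfi1 was above the floor, and the monocyte markers were low there too. It was 3.98-fold lower in GFP-high than in GFP-low cells, and its other probe set gave -2.34. Mta1 differed chiefly in granulocytes, with 6.02 there, 7.97 in Gfi1-deficient, 7.17 in GFP-high and 7.64 in GFP-low cells. The remodeller gene Chd4 spanned 8.36 to 8.59 in its representing probe set, and its others put granulocytes 0.53 and 0.43 above GFP-low cells, where the first gave -0.09. NuRD counts were 0 of 10 higher and 3 of 10 lower in granulocytes against GFP-low cells, beside 10.0% and 18.2% of all genes, with a median of -0.51. After median centring 2 were higher (Gatad2b and Mbd2) and 3 lower, with a median of -0.28.

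Of the NCoR-SMRT list 5 of 6 named genes were measured. Cbfa2t3, the ETO2 corepressor of blood cells, read 6.46 in granulocytes, 8.89 in Gfi1-deficient, 6.73 in GFP-high and 9.18 in GFP-low cells. Like Mta3 and the monocyte markers, Cbfa2t3 was low in the 2 populations with Gfi1 above the floor. It was 5.50-fold lower in GFP-high and 6.60-fold lower in granulocytes than in GFP-low cells. Its 3 other probe sets were lower in both as well, though 1 of them reached only -0.49 and -0.54. The median of the list was -0.06 in GFP-high minus GFP-low cells. Sin3 genes were 1 higher and 1 lower of 8 in granulocytes against GFP-low cells, Arid4b at 1.15 and Sap30 at -1.12, beside 10.0% and 18.2% of all genes. In GFP-high against GFP-low cells 0 of 8 were 2-fold apart, beside 18.6% of all genes. After median centring 0 of the 8 were 2-fold lower in granulocytes.

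A list of other protein partners of Gfi1 gave 8 measured genes of 9 named. None was 2-fold apart between GFP-high and GFP-low cells or between Gfi1-deficient and GFP-low cells, beside 18.6% and 1.91% of all genes. Prmt1, an arginine methyltransferase, read 6.53 in granulocytes, 9.23 in Gfi1-deficient, 8.34 in GFP-high and 8.83 in GFP-low cells, and granulocytes were 6.49-fold, 3.52-fold and 4.95-fold under the others. Spi1, which encodes the myeloid factor PU.1, read 11.62, 10.85, 10.99 and 10.85 in the same order.

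**Figure D4:**
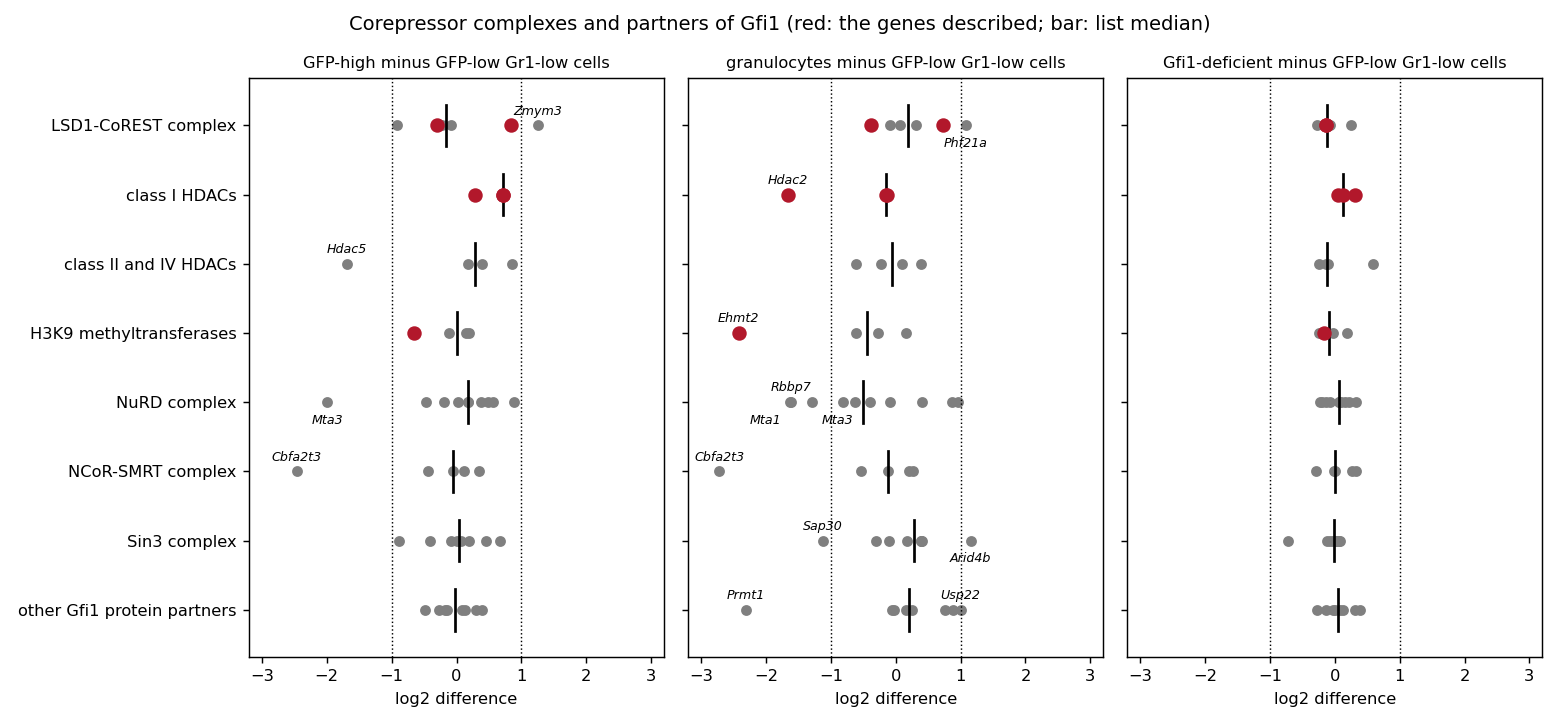
Log2 difference (horizontal axis) of each measured gene in 8 lists of corepressor complexes and Gfi1 partners, in GFP-high minus GFP-low, granulocytes minus GFP-low and Gfi1-deficient minus GFP-low cells, with the genes described above in red, the list median as a bar, dotted lines at 2-fold and names past 2-fold. The points spread widely in granulocytes, where Cbfa2t3, Ehmt2 and Prmt1 lie lowest. None passes 2-fold in Gfi1-deficient minus GFP-low cells, where 1.91% of all genes did.

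Genes with a literature of binding or repression by Gfi1 were listed to set the repressor's level beside its targets, a list chosen with earlier results of these data known. Of 25 listed, Gfi1 and Gfi1b among them, 23 were named. In GFP-high against GFP-low cells 4 of 18 measured were at least 2-fold higher (Gfi1, Ets1, Egr1 and Id1) and 5 were lower (Csf1r, Irf8, Il6ra, Cdkn1a and Socs3), beside 9.03% higher and 9.61% lower of all genes, with a median of -0.02 against 0.03 for all genes. Gfi1 is counted here as a target of itself, and its call follows from the reporter gate. The remaining calls also went both ways.

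In Gfi1-deficient against GFP-low cells 1 of 18 was higher and 1 lower, beside 0.637% and 1.27% of all genes, with a median of -0.16 against 0.03. The higher one was Socs3, an inhibitor of cytokine signalling, which read 9.35 in granulocytes, 8.68 in Gfi1-deficient, 5.79 in GFP-high and 7.58 in GFP-low cells. Its 2 other probe sets gave 1.64 and 1.47, beside 1.10, in Gfi1-deficient minus GFP-low cells, and all 3 were lowest in GFP-high cells. The lower one was Ets1, a transcription factor, which read 10.10 in granulocytes, 4.32 in Gfi1-deficient, 10.34 in GFP-high and 6.32 in GFP-low cells. Ets1 was above 10 in the 2 populations with Gfi1 above the floor, which are also those low in monocyte markers. In Gfi1-deficient minus GFP-low cells this probe set gave -1.15 and 1 of the others -1.12. Both are bounds, since each was under the floor in Gfi1-deficient cells. The remaining probe sets gave -0.10, again as a bound, and, with both arrays under the floor, no value. The growth factor gene Csf1 read 7.46, 6.86, 7.04 and 7.01 in the same order of arrays in its representing probe set, with granulocytes 0.46 above GFP-low and 0.61 above Gfi1-deficient cells. Its probe sets disagreed in size: 2 others put granulocytes 1.15 and 1.82 above GFP-low and 1.67 and 2.08 above Gfi1-deficient cells, past 2-fold, and another was under the floor throughout. The cell cycle inhibitor gene Cdkn1a read 6.88, 9.40, 7.14 and 9.44, low in granulocytes and GFP-high cells.

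**Figure D5:**
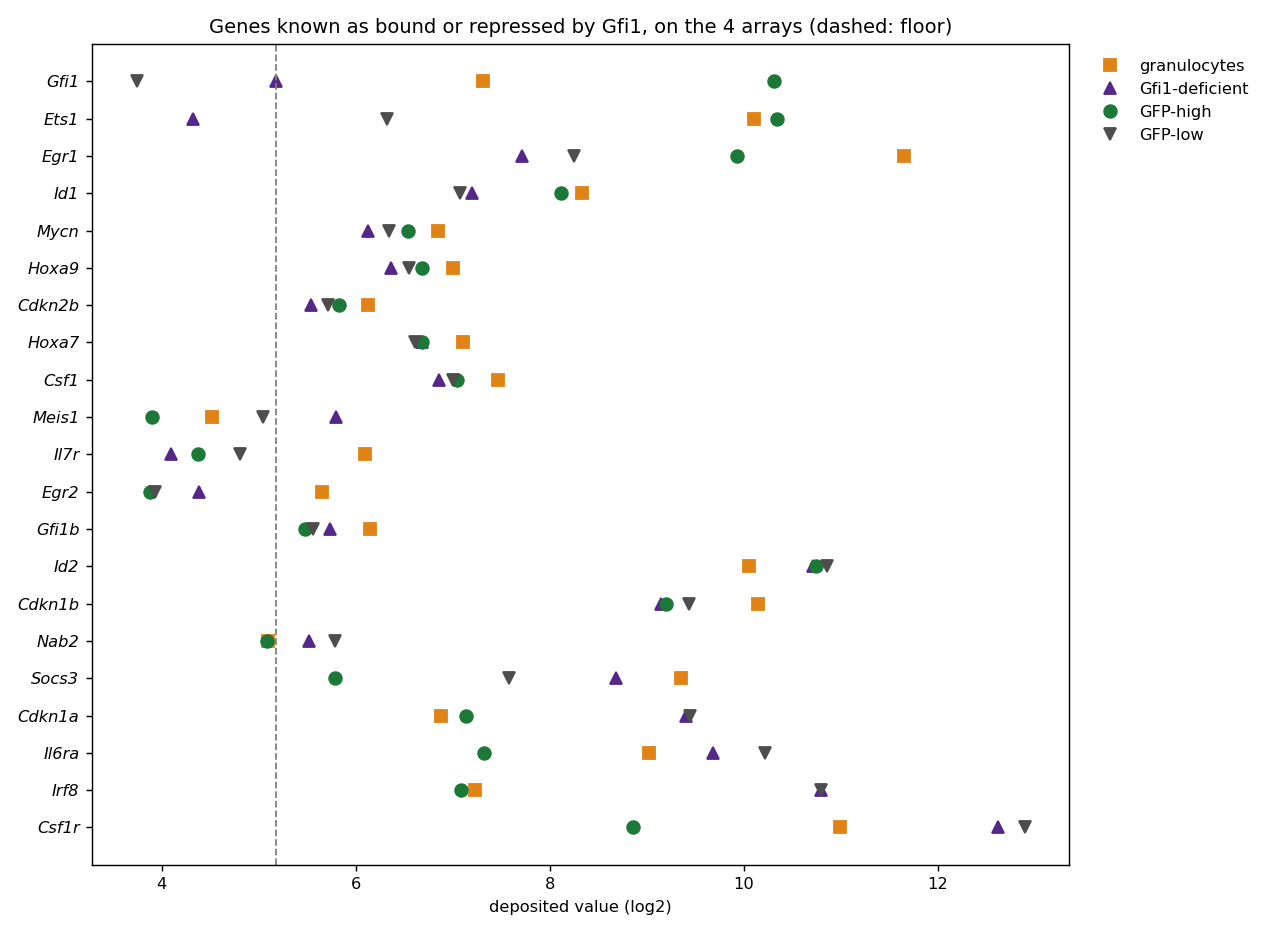
Deposited log2 value (horizontal axis) of each gene of the target list that was above the floor of 5.18 (dashed) on at least 1 array, by population, ordered by the GFP-high minus GFP-low difference. Gfi1, Ets1 and Egr1 stand high in granulocytes and GFP-high cells, Csf1r, Irf8 and Cdkn1a in Gfi1-deficient and GFP-low cells, and most of the rest lie close together.

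Likeness of pattern was measured as the Euclidean distance between log2 values over the 4 arrays, after the floor and with each gene's mean removed, among 8621 genes. It was computed for the 3 genes whose values spanned at least 1, Gfi1, Hdac2 and Ehmt2; Rcor1 just missed this at 0.97. The nearest to Gfi1 were Mogat2 at a distance of 0.65, Ada (adenosine deaminase) at 0.87, Vcam1 (an adhesion molecule) at 0.96, Tuba8 at 1.04 and Ica1 at 1.06. Mogat2, for one, read 7.53 in granulocytes, 5.32 in Gfi1-deficient, 9.98 in GFP-high and 5.76 in GFP-low cells. Nearest to Hdac2 were Oxct1 (a ketone body enzyme) at 0.10, Ercc6l at 0.12, Tagln2 at 0.13, Xpot (exportin of transfer RNA) at 0.13 and Ran (the nuclear transport GTPase) at 0.13. Nearest to Ehmt2 were Isoc1 at 0.12, Eif3e (a translation initiation factor subunit) at 0.16, Pnpt1 at 0.18, Eef1d (a translation elongation factor subunit) at 0.20 and Ddx21 (a nucleolar helicase) at 0.21. With 4 arrays many genes share a pattern, and these are descriptions of likeness.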

How the data were processed

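Expression was measured on 1 Affymetrix array for each of 4 sorted populations. Per the labels' protocols, RNA was isolated with TRIzol and 6 µg made into biotin-labelled cRNA. The values deposited by the authors are taken as log2 from their range, 2.70 to 14.50. How probes were summarised and normalized, and the log base, is not stated in the labels. Array medians were 5.91 to 6.01, and no scaling was added. The number of arrays limits the precision.

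Of 22690 probe sets, 20393 had 1 gene in the platform annotation, 691 several and 1606 none. After leaving out control probe sets, 20380 were used, and 20351 matched a gene identifier of GRCm38.p6. The probe set with the highest mean represents a gene. Values under the 40th percentile were set to it. Scatter between probe sets used the 2 brightest of each gene above the floor on both arrays.

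Named were all probe sets of the 8 genes, up to 4 list members with large differences, and the 5 nearest genes. The members and lists were chosen with earlier results of these data known. Alternatives were floors at the 20th and 60th percentiles, quantile normalization, centring each array on the median of genes above the floor, and the mean of a gene's probe sets. Counting was tested on simulated data. Python 3.11.15, numpy 2.4.6 and pandas 2.3.3 were used.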

Additional observations from a re-analysis of the deposited data

How the results depend on the processing

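Of 240 differences of single genes recomputed under 5 alternatives, 0 turned round while 2-fold apart in the main setting, and 8 crossed the 2-fold line. The count of 0 says little. A change of floor cannot reverse a sign, and the mean of probe sets leaves genes with 1 probe set as they were. Median centring shifted the arrays by only -0.18 to 0.07. Under a lower floor, the 20th percentile, Gfi1 was at least 6.31 higher in GFP-high and at least 3.31 higher in granulocytes than in GFP-low cells. It then also stood at least 1.18 higher in Gfi1-deficient than in GFP-low cells, which made 1 gene 2-fold apart there in place of 0. A higher floor, the 60th percentile, gave Gfi1 bounds of 3.50 for GFP-high over GFP-low cells, -3.50 for Gfi1-deficient against GFP-high cells, and 0.50 for granulocytes over both GFP-low and Gfi1-deficient cells. That floor left 1 gene 2-fold apart in granulocytes against GFP-low and 1 against Gfi1-deficient cells, in place of 3 each. These moves follow from the floor itself, since bounds are taken from it. Leaving out a replicate was not possible with 1 array per population. With quantile normalization 2 genes were 2-fold apart between Gfi1-deficient and GFP-high cells, in place of 1. Median centring carried Rcor1 to 1.10 in granulocytes over Gfi1-deficient cells, in place of 0.85. No paired analysis was possible because each population has 1 array.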
